A study of Arabidopsis thaliana with 6 samples.

Results

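Nitrate uptake and reduction genes of Arabidopsis thaliana were followed in root tips held on salt. They were chosen by locus, 10 of the 27655 loci in the deposited table: NRT1.1, NRT1.2, NPF7.3, NRT2.1, NRT2.2, NRT2.4, NRT3.1, NIA1, NIA2 and NIR1. Transcript levels were measured by RNA-seq in 3 samples of the sos2-2 mutant and 3 of wild type (WT). In both genotypes the seedlings were 6 days old, had grown on MS-based agar with sucrose under constant light, and spent 12 hours in liquid medium with 100 mM NaCl before the root tips were taken. The kinase SOS2 acts in the Salt Overly Sensitive pathway, through which cells export sodium, and the series asks how root meristems are kept up on salt. All 6 samples were on salt, so a genotype difference that exists without salt cannot be told apart from a response to it. The labels give neither the lesion of sos2-2 nor the accession, nor whether the 3 samples of a genotype were grown apart. What the p-values weigh is hence sample-to-sample spread, possibly of technical origin.

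Nitrate enters root cells through transporters of the NPF family (also called NRT1), mostly at high external supply, and of the NRT2 family at low supply. NRT2 proteins need the partner protein NRT3.1 to work at the plasma membrane. Inside the cell nitrate reductase (NIA1 and NIA2) makes nitrite in the cytosol, and nitrite reductase (NIR1) makes ammonium in the plastid, from where glutamine and glutamate are built. NRT1.1 is also a nitrate sensor, and is phosphorylated by CIPK23, a kinase of the same family as SOS2.

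Values are TPM, which scale transcript abundance for length, so levels of different genes can be set side by side. TPM keep no sequencing depth, so depth is unknown. Between 18812 and 19141 loci reached 1 TPM in a sample. Across loci on the log2 scale, samples correlated at 0.954 to 0.982 within sos2-2, 0.976 to 0.991 within WT and 0.726 to 0.824 across genotypes. SOS2 itself stood at 22.0, 10.2 and 14.3 TPM in sos2-2, against 4.98, 5.81 and 5.44 TPM in WT, which does not check the labels, as the lesion is unknown. The design text also names gl1, and GL1 was listed at 0 in all 6 samples. That does not tell whether either genotype carries gl1, as a gene silent in root tips would also be listed at 0. The transcript AT2G01021.1 was the most abundant in 4 of the 6 samples, at 36625 TPM in sos2-2 replicate 2 and at 55548, 17909 and 14357 TPM in WT. The root cap markers SMB, BRN1, BRN2 and FEZ were measured in every sample, and their summed level was 42.4 to 44.8 TPM in sos2-2 and 32.0 to 37.0 TPM in WT. They did not move together: SMB and BRN2 were called higher in sos2-2 by the limma test given below, and BRN1 was not called. FEZ was called lower, at 0.733 ± 0.438 TPM in sos2-2 and 3.41 ± 0.54 TPM in WT (SD, n = 3 each). The 6 markers of green tissue summed to 18.7 to 40.2 TPM in sos2-2 and 65.3 to 84.0 TPM in WT. Most abundant was RCA, at 14.6 ± 5.51 TPM in sos2-2 and 41.7 ± 7.28 TPM in WT (SD, n = 3 each). RBCS1A stood at 9.43 ± 6.07 TPM in sos2-2 and 20.2 ± 4.27 TPM in WT, with groups that overlapped. LHCB1.1, a light-harvesting protein of leaves, was at 0.322 TPM or less in every sample. The 3 markers tested (RCA, RBCS1A and LHCB3) were all called lower in sos2-2 by the same limma test, RBCS1A at an adjusted p = 0.0455. Of all tested loci 34.1% were called lower and 31.3% higher.

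The uptake and reduction genes did not all move in the same direction in sos2-2 relative to WT. The high-affinity transporter NRT2.1, its partner NRT3.1 and the low-affinity transporter NRT1.2 rose, whereas NRT1.1, NIA1, NIR1 and the xylem loader NPF7.3 fell. NIA2 did not pass the test. NRT2.2 and NRT2.4 had means below 1 TPM and were not tested. Of the 8 members tested 3 were called higher and 4 lower (limma on log2(TPM + 1), Benjamini-Hochberg adjusted p under 0.05 over 19527 loci). The genotypes differed widely, with 65.4% of all tested loci called: 31.3% of the tested loci were higher in sos2-2 and 34.1% lower. Groups that do not overlap were found for 6 of the 8 members, against 72.1% of all tested loci. The number of members called is thus read against a high background, and the results lie in which members moved, how far and in which direction.

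**Figure D1:**
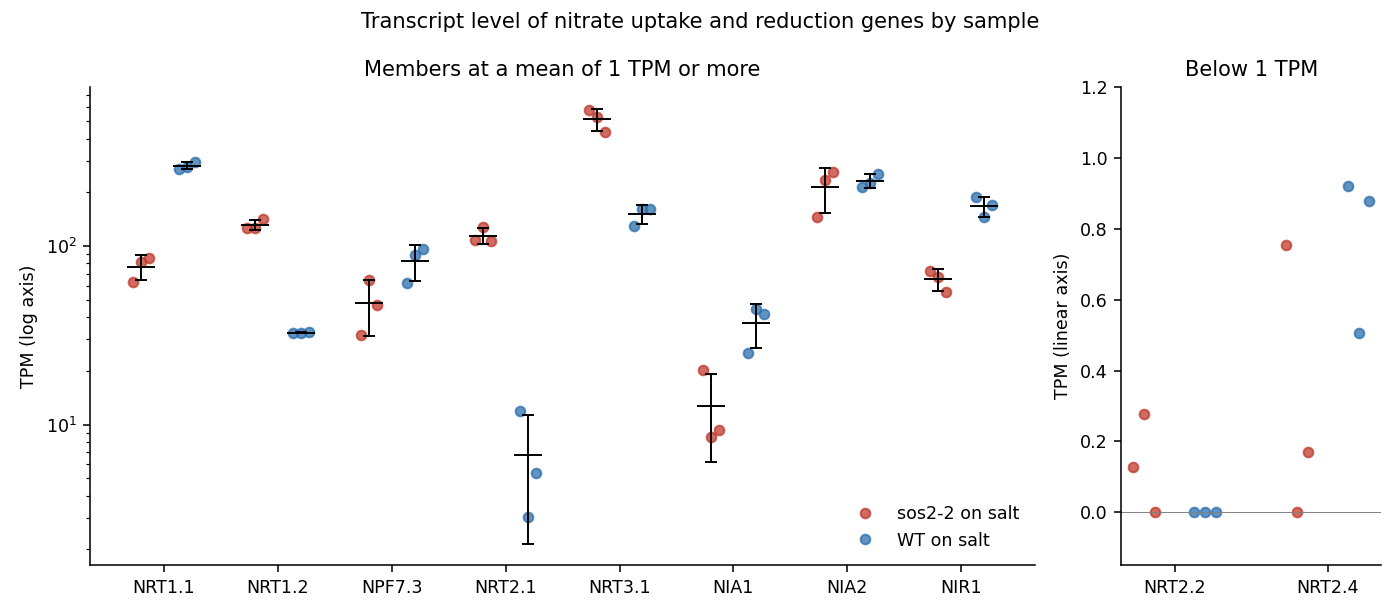
TPM of the 10 members in each sample, sos2-2 on salt in red and WT on salt in blue, 3 samples each. Left, 8 members on a log axis with the mean and SD (bars). Right, the 2 members below 1 TPM on a linear axis, points only. NRT2.1 lies above 100 TPM in every sos2-2 sample and below 12 TPM in every WT sample, and NRT1.1 is lower in every sos2-2 sample than in any WT sample.

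NRT2.1 (AT1G08090, chr1:2524023-2526322 in TAIR10.1, plus strand, 3 exons) is the main high-affinity nitrate transporter of the root. It stood at 108, 127 and 107 TPM in sos2-2, against 11.9, 3.05 and 5.33 TPM in WT. The sos2-2 samples lay close together and far above WT, and WT replicate 1 was the highest of its group. Means were 114 ± 11.5 TPM in sos2-2 and 6.77 ± 4.61 TPM in WT (SD, n = 3 each), a 16.9-fold ratio that became 27.2-fold without WT replicate 1. The log2 fold change was 4.05 (SE 0.38, 95% interval 3.16 to 4.94, adjusted p = 0.000106). It was the 197th largest of the 19527 tested.

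NRT2.2 (AT1G08100, chr1:2527170-2529120, minus strand, 3 exons) encodes a close copy of NRT2.1 and is the next protein-coding gene, 847 bases away on the other strand. It was listed at 0.128, 0.276 and 0 TPM in sos2-2, and at 0 in all 3 WT samples. Reads from close copies can be split wrongly between them, so the coding sequences were compared. They were 89.6% identical over 1567 aligned bases, and 14.7% of the 31-base words of the NRT2.1 mRNA also occurred in that of NRT2.2. The stretch below, the first of 90 coding bases aligned without a gap, shows where the copies differ near the start of the coding sequence. It is less alike than the whole and holds 18 differing bases, in capitals, between coding bases 88 to 177 of NRT2.1 and 82 to 171 of NRT2.2, both read 5′ to 3′.
NRT2.1 coding: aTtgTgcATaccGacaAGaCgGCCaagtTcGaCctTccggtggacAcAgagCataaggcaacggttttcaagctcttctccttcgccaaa
NRT2.2 coding: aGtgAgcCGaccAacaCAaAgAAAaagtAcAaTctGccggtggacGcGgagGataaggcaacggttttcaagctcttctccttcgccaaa
NRT2.1 and NRT2.4 were 74.6% identical in coding sequence and NIA1 and NIA2 74.9%, and neither pair shared a 31-base word (0% for each). NRT2.4 (AT5G60770), a transporter of nitrogen-starved roots, stood at 0.753, 0 and 0.170 TPM in sos2-2, against 0.922, 0.506 and 0.879 TPM in WT. The groups overlapped. With no filter on low values, NRT2.4 had a log2 fold change of -0.47 (adjusted p = 0.12) and NRT2.2 one of 0.18 (adjusted p = 0.173), so neither was called. The large rise of NRT2.1 thus stood beside levels under 1 TPM for both relatives in every sample.

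Upstream sequence of all members was examined as a description, without a test. The 250 bases before the annotated start of each member were searched on both strands for GAATC, a core read by GARP-type regulators such as HRS1, which act in nitrate and phosphate responses. The windows of NRT2.1 (chr1:2523773-2524022, plus strand), NRT2.2 (chr1:2529121-2529370, minus strand) and NRT3.1 (chr5:20435930-20436179, plus strand) and, among the genes that fell, NIR1 (chr2:6810145-6810394, plus strand), are given 5′ to 3′ from RefSeq TAIR10.1, with each match in capitals (GAATC, or GATTC on the other strand).
NRT2.1 upstream: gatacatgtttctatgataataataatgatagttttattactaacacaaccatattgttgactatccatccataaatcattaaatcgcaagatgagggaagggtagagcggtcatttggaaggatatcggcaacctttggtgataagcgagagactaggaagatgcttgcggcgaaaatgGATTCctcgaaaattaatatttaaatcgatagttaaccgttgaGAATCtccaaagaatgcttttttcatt
NRT2.2 upstream: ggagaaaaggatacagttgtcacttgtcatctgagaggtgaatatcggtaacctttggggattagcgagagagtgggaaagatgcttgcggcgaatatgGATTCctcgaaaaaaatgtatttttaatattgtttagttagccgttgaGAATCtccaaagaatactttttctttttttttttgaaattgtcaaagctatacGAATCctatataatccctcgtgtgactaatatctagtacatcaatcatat
NRT3.1 upstream: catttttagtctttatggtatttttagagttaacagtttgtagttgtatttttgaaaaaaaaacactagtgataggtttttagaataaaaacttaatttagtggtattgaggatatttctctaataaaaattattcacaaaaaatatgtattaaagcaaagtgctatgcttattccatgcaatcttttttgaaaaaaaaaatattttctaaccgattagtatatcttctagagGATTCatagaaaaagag
NIR1 upstream: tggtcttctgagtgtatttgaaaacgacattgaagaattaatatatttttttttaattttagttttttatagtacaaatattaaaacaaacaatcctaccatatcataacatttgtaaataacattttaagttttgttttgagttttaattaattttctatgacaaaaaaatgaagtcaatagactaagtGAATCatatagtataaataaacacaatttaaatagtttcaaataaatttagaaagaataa
The NRT2.1 window had 2 matches, from -70 and from -27 relative to the start, and the NRT2.2 window had 3. Matches were present in 6 of the 10 member windows, also those of NRT2.4, NIA1 and NIR1, and in 38.8% of the windows of 27443 protein-coding genes. Both genes that rose and genes that fell carried the letters. TTGAC, the core read by WRKY factors, was found in 6 of 10 member windows and in 44.9% of all windows. ACGTG, the core of abscisic acid response elements, was found for NIA2 only among the members and in 22.9% of all. TGACG, the core read by TGA factors, which can overlap TTGAC, was in 0 of 10 and 18.6%, and the spaced core of the nitrate-responsive element was in 0 of 10 and 8.02%. A match describes letters and not a bound site, and the lack of a match covers only these 250 bases and the exact pattern searched.

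NRT3.1 (AT5G50200, named WR3 in RefSeq), the partner that NRT2 transporters need, rose to the highest level of the set. It had 577, 529 and 437 TPM in sos2-2, against 129, 162 and 162 TPM in WT. Every sos2-2 sample lay far above every WT sample. Means were 514 ± 71.0 TPM in sos2-2 and 151 ± 18.7 TPM in WT (SD, n = 3 each), a 3.40-fold ratio. The log2 fold change was 1.76 (SE 0.15, adjusted p = 6.82e-05). NRT3.1 was the only member with more than 1 transcript in the table. Its transcript AT5G50200.1 stood at 536, 442 and 360 TPM in sos2-2, against 105, 132 and 132 TPM in WT (log2 fold change 1.84, adjusted p = 0.000215 over transcripts). AT5G50200.2 stood at 41.0, 87.0 and 77.1 TPM in sos2-2, against 24.3, 29.4 and 28.8 TPM in WT (1.22, adjusted p = 0.00834). Both transcripts rose. AT5G50200.3 was near 0 except in WT replicate 3, at 1.66 TPM. AT5G50200.1 made up 92.9, 83.5 and 82.3% of the locus in sos2-2, against 81.2, 81.8 and 81.2% in WT. These shares did not overlap (exact permutation test, two-sided p = 0.1, the smallest that 3 against 3 samples allow), but the difference of 4.84 points became 1.53 points without sos2-2 replicate 1.

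NRT2.1 rose more than its partner. The ratio of NRT2.1 to NRT3.1 was 0.187, 0.241 and 0.245 in sos2-2, against 0.0922, 0.0189 and 0.0329 in WT. The groups did not overlap (exact permutation test, two-sided p = 0.1, the smallest possible). In all samples the partner's transcript was thus more abundant than that of the transporter. With 1 sample left out in turn, the difference of 0.176 ranged from 0.162 to 0.199.

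**Figure D2:**
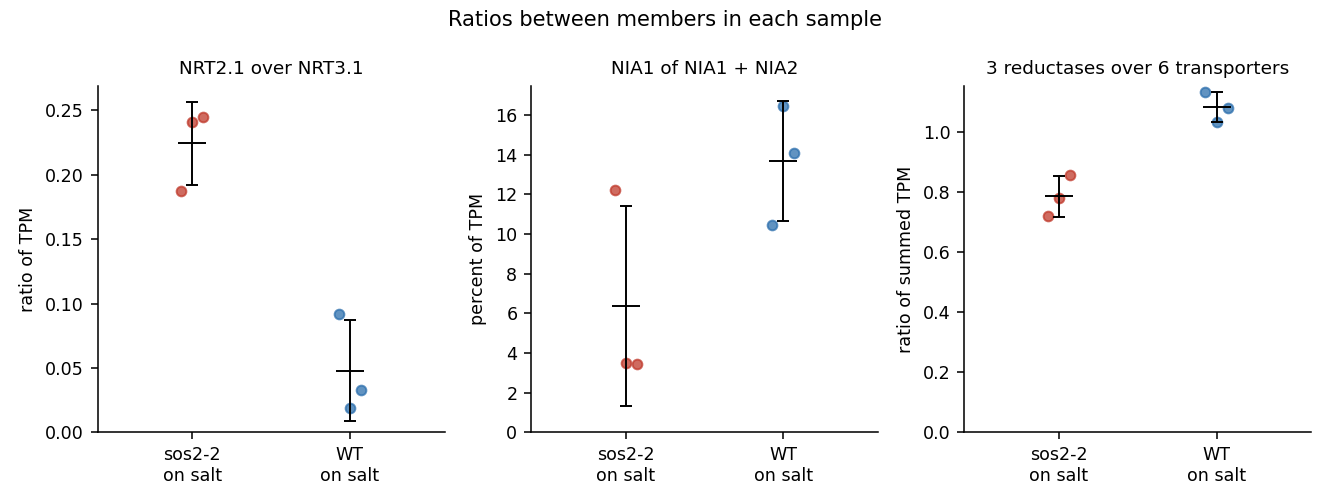
Ratios between members in each sample (points) with mean and SD (bars), sos2-2 on salt in red and WT on salt in blue, 3 samples each. Left, TPM of NRT2.1 over NRT3.1. Middle, NIA1 as a percent of NIA1 plus NIA2. Right, summed TPM of NIA1, NIA2 and NIR1 over that of the 6 transporters. The left and right ratios do not overlap between genotypes, and the NIA1 share does, through sos2-2 replicate 1.

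NRT1.1 (AT1G12110, chr1:4105223-4109601, 5 exons), the dual-affinity transporter and nitrate sensor, was the most abundant member in WT. It fell to 63.0, 81.1 and 86.1 TPM in sos2-2, against 271, 277 and 296 TPM in WT. The spread within each genotype was small beside the gap between them. Means were 76.7 ± 12.1 TPM in sos2-2 and 281 ± 12.9 TPM in WT (SD, n = 3 each), so WT was 3.66-fold higher. The log2 fold change was -1.87 (SE 0.14, adjusted p = 4.27e-05). CIPK23, the kinase that phosphorylates NRT1.1, fell too, to 49.6 ± 2.9 TPM in sos2-2, against 91.5 ± 15.8 TPM in WT (log2 fold change -0.86, adjusted p = 0.00146).

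NRT1.2 (AT1G69850), a low-affinity transporter that RefSeq also lists as an importer of abscisic acid, moved the other way. It had 127, 125 and 141 TPM in sos2-2, against 32.6, 32.5 and 33.2 TPM in WT. The WT samples differed by under 1 TPM, and the genotypes lay far apart. The ratio of means was 4.00 (log2 fold change 1.97, SE 0.10, adjusted p = 1.15e-05), the smallest adjusted p of the set. NRT1.1 and NRT1.2 changed places: NRT1.1 was the higher of the pair in every WT sample, NRT1.2 in every sos2-2 sample.

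NPF7.3 (AT1G32450, NRT1.5 in RefSeq) loads nitrate into the xylem for transport to the shoot. It stood at 31.9, 64.8 and 46.6 TPM in sos2-2, against 61.8, 88.6 and 96.8 TPM in WT. The groups overlapped, as sos2-2 replicate 2 exceeded WT replicate 1. The log2 fold change of -0.81 (SE 0.28, 95% interval -1.45 to -0.16) was called at an adjusted p = 0.0341. That call was lost without sos2-2 replicate 1 (adjusted p = 0.0641), sos2-2 replicate 3 (0.0814), WT replicate 2 (0.101) or WT replicate 3 (0.111), and with no filter on low values (0.0513). Over all alternatives the adjusted p ran from 0.00516 to 0.111.

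**Figure D3:**
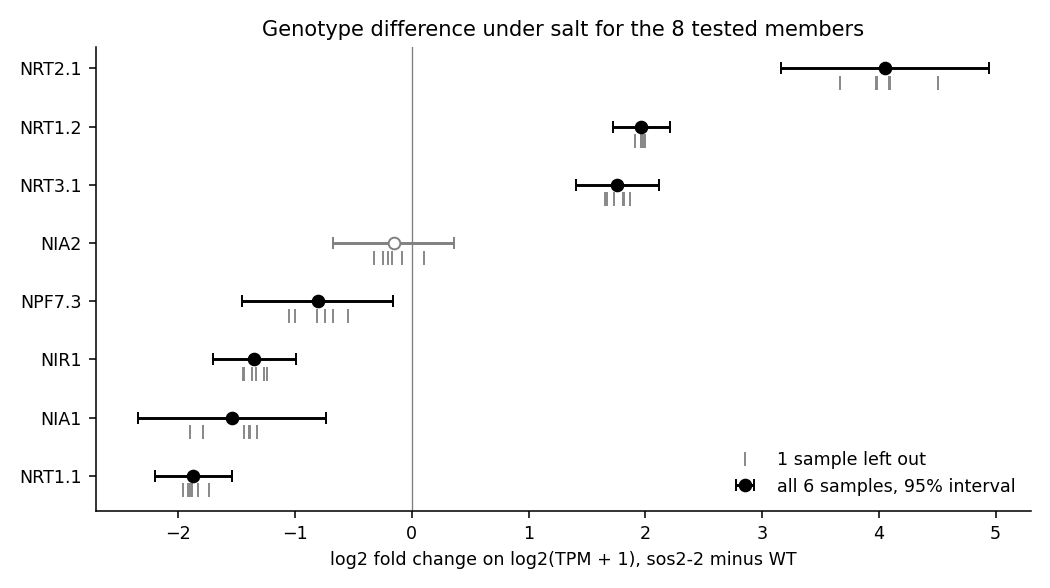
Log2 fold change on log2(TPM + 1), sos2-2 minus WT, of the 8 tested members (circles; open, not called) with 95% intervals, 3 samples a genotype. Ticks under each circle give the value with 1 sample left out in turn. NRT2.1, NRT1.2 and NRT3.1 lie above 0 and NRT1.1, NIA1, NIR1 and NPF7.3 below it in every such fit, while NIA2 falls on both sides.

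Among the reductase genes NIA1 and NIR1 were called lower, and NIA2 was not called. NIA1 (AT1G77760), the less abundant nitrate reductase gene, fell to 20.1, 8.48 and 9.34 TPM in sos2-2, against 25.2, 44.5 and 41.8 TPM in WT. Replicate 1 was the highest in sos2-2 and the lowest in WT, and the groups still did not overlap. The log2 fold change was -1.54 (SE 0.34, 95% interval -2.35 to -0.73, adjusted p = 0.00572). NIA2 (AT1G37130), the more abundant gene, stood at 145, 235 and 261 TPM in sos2-2, against 215, 225 and 255 TPM in WT. The sos2-2 values spanned the whole WT range, with replicate 1 the lowest. Its log2 fold change of -0.16 had a 95% interval of -0.67 to 0.36 (adjusted p = 0.559), an interval that reached less far down than the NIA1 value. Without sos2-2 replicate 1 the sign turned, to 0.10.

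NIR1 (AT2G15620, chr2:6810395-6812941, 4 exons), the single nitrite reductase gene of the set, fell to 72.9, 66.9 and 55.3 TPM in sos2-2, against 187, 145 and 169 TPM in WT. Every sos2-2 sample was below every WT sample. WT was 2.57-fold higher by means (log2 fold change -1.35, SE 0.15, adjusted p = 0.00021). NIA1 made up 12.2, 3.48 and 3.45% of the summed nitrate reductase TPM in sos2-2, against 10.5, 16.5 and 14.1% in WT. These shares overlapped because of sos2-2 replicate 1 (exact permutation test, two-sided p = 0.2). The 3 reductases together stood at 292 ± 47.0 TPM in sos2-2 and 436 ± 26.3 TPM in WT. Without NIR1 the groups overlapped: NIA1 and NIA2 summed to 165, 244 and 271 TPM in sos2-2, against 240, 270 and 296 TPM in WT. The 6 transporters together stood at 370 ± 35.5 TPM in sos2-2 and 404 ± 27.0 TPM in WT, and their sums overlapped. The ratio of reductases to transporters was 0.720, 0.779 and 0.856 in sos2-2, against 1.13, 1.03 and 1.08 in WT (exact permutation test, two-sided p = 0.1, the smallest possible).

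The order of levels among members differed between genotypes. In sos2-2 it ran NRT3.1, NIA2, NRT1.2, NRT2.1, NRT1.1, NIR1, NPF7.3, NIA1, NRT2.4 and NRT2.2. The ranges of neighbours overlapped for NRT1.2 with NRT2.1, for NRT1.1 with NIR1, for NIR1 with NPF7.3 and for NRT2.4 with NRT2.2. In WT the order ran NRT1.1, NIA2, NIR1, NRT3.1, NPF7.3, NIA1, NRT1.2, NRT2.1, NRT2.4 and NRT2.2, and ranges overlapped for NIR1 with NRT3.1 and for NIA1 with NRT1.2. NRT3.1 made up 43.7 ± 6.1% of the summed TPM of the 10 members in sos2-2 and 15.2 ± 1.3% in WT, and NRT1.1 6.53 ± 1.01% in sos2-2 and 28.4 ± 0.5% in WT (SD, n = 3 each). The sum itself was 1176 ± 54.5 TPM in sos2-2 and 991 ± 63.1 TPM in WT.

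Some markers of cell types that host these genes also differed. The numbers called are read against 65.4% of all tested loci called, 31.3% higher in sos2-2 and 34.1% lower. The 6 markers of the epidermis and root hairs summed to 439 to 504 TPM in sos2-2 and 1333 to 1736 TPM in WT, with 3 of them higher in sos2-2 and 3 lower. Most of that gap was PRP3, a root hair cell wall protein, at 137 ± 13.9 TPM in sos2-2 and 1157 ± 185 TPM in WT (SD, n = 3 each), while RHD6, WER and GL2 were the markers called higher. The 6 endodermis markers summed to 139 to 371 TPM in sos2-2 and 801 to 1009 TPM in WT, with 1 higher and 5 lower. The sums of the 6 stele markers overlapped, at 164 to 216 TPM in sos2-2 and 173 to 197 TPM in WT. Of these markers 1 was called higher (APL), 1 lower (XCP1) and 4 were not called. The 5 meristem markers summed to 20.0 to 30.4 TPM in sos2-2 and 56.3 to 83.9 TPM in WT, with 0 higher, 2 lower and 3 not called. The meristem markers called lower were the cell division genes KNOLLE, at 3.03, 4.89 and 2.89 TPM in sos2-2 and 48.6, 32.2 and 41.7 TPM in WT, and CYCB1;1, at 3.52, 5.73 and 2.88 TPM in sos2-2 and 18.1, 9.87 and 13.1 TPM in WT, and PLT1, PLT2 and WOX5 were not called. None of these markers was listed at 0 in all samples (0 in each list). Their part in the changes of NRT1.1, NRT2.1 or any other member was not tested. In bulk root tips fewer cells of a type and less RNA per cell cannot be told apart.

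Other transporters of nitrate rose more often than they fell in sos2-2. Of 25 listed 24 were analysed here and 16 tested, with 8 higher, 3 lower and 5 not called, against 31.3% and 34.1% of all tested loci, and a median log2 fold change of 0.51, against -0.05 over all loci. NRT1.8, which takes nitrate back out of the xylem sap, stood at 279, 445 and 393 TPM in sos2-2, against 14.6, 14.8 and 16.6 TPM in WT. All sos2-2 samples were far above WT (24.3-fold by means, log2 fold change 4.49, SE 0.18, adjusted p = 5.68e-06), beside 16.9-fold for NRT2.1. AT1G22550, a gene of the major facilitator superfamily, rose to 97.3 ± 15.4 TPM in sos2-2, against 21.5 ± 3.9 TPM in WT. SLAH2, an anion channel gene of the SLAC1 family, rose to 19.4, 23.3 and 30.4 TPM in sos2-2, against 4.70, 7.43 and 7.15 TPM in WT. Among those that fell were NPF6.2, at 6.79 ± 3.29 TPM in sos2-2 and 25.6 ± 8.7 TPM in WT, NRT1.9, which acts in phloem nitrate transport, at 20.4 ± 3.7 TPM in sos2-2 and 38.2 ± 0.81 TPM in WT, and the vacuolar NRT2.7, at 0.952 ± 0.143 TPM in sos2-2 and 2.29 ± 0.34 TPM in WT (SD, n = 3 each).

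Regulators of the nitrate response were higher in 20 of 33 tested cases and lower in 2, against 31.3% higher and 34.1% lower over all tested loci, with a median log2 fold change of 0.95, against -0.05 over all loci. AT1G25550, a myb-like factor in RefSeq, rose most, with 513, 362 and 502 TPM in sos2-2, against 55.6, 56.7 and 63.7 TPM in WT (log2 fold change 2.93, adjusted p = 1.28e-05). BT1, a BTB and TAZ domain protein, stood at 109 ± 32 TPM in sos2-2 and 23.2 ± 1.9 TPM in WT, and AT3G60320, annotated as a bZIP domain class factor, at 97.4, 53.6 and 74.0 TPM in sos2-2 and 18.3, 15.6 and 18.0 TPM in WT. The NIN-like proteins NLP1 to NLP9 include NLP7, the nitrate sensor and activator of nitrate-responsive genes. Of the 7 tested 6 rose and 0 fell (median 1.17), beside the same 31.3% and 34.1% over all loci. NLP7, chosen after its values were seen, had 47.7, 54.1 and 57.4 TPM in sos2-2, against 17.9, 18.3 and 18.1 TPM in WT. The LBD repressors LBD38 and LBD39 rose and LBD37 was not called, also chosen after their values were seen. Besides CIPK23 only ANR1, a MADS factor of nitrate-dependent lateral root growth, fell among the regulators tested, with 0.888, 0.150 and 0.495 TPM in sos2-2 and 2.02, 9.04 and 7.46 TPM in WT. WT was 12.1-fold higher, or 19.1-fold without sos2-2 replicate 1.

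**Figure D4:**
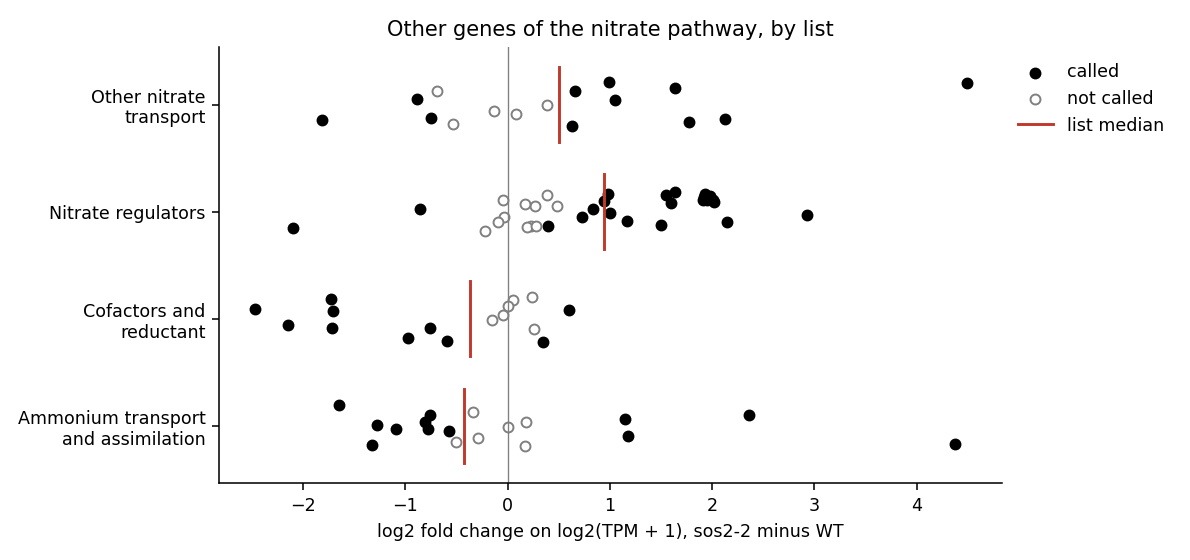
Log2 fold change on log2(TPM + 1), sos2-2 minus WT, of the tested genes in 4 lists of the nitrate pathway (circles; filled, adjusted p under 0.05; vertical spread is only for legibility). Red lines are list medians, 0.51 for other nitrate transport, 0.95 for regulators, -0.37 for cofactors and reductant and -0.42 for ammonium transport and assimilation.

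Genes that supply the reductases with cofactors and electrons were called lower in 8 of 16 cases and higher in 2, against 34.1% lower and 31.3% higher over all tested loci, with a median of -0.37, against -0.05. The 10 called in either direction are a share near the 65.4% of all loci. Nitrite reductase takes its electrons from ferredoxin. FD3, the root ferredoxin, fell to 60.6, 114 and 75.3 TPM in sos2-2, against 395, 316 and 374 TPM in WT, and RFNR2, the root enzyme that reduces ferredoxin with NADPH, fell to 36.3, 36.5 and 28.0 TPM in sos2-2, against 251, 149 and 182 TPM in WT. Both had groups far apart (log2 fold changes -2.15 and -2.47, adjusted p = 0.000182 and 6.37e-05). The 6-phosphogluconate dehydrogenases, which make NADPH, fell in 3 of 3 cases. The one named by size was AT3G02360, at 73.2 ± 24.7 TPM in sos2-2 and 235 ± 18 TPM in WT. The glucose-6-phosphate dehydrogenase genes of the same list, G6PD2 and G6PD3, were not called (log2 fold changes -0.15 and 0.002, adjusted p = 0.297 and 0.994). Of 6 genes for the molybdenum cofactor, which nitrate reductase needs, 2 rose and 2 fell, and the falls were the larger changes. CNX7 stood at 12.7 ± 0.61 TPM in sos2-2 and 44.6 ± 6.45 TPM in WT (log2 fold change -1.72, adjusted p = 4.54e-05), and AT2G43760 at 27.0 ± 2.86 TPM in sos2-2 and 46.4 ± 5.27 TPM in WT (adjusted p = 0.00163), both named after their values were seen. CNX1 stood at 87.0 ± 5.7 TPM in sos2-2 and 56.9 ± 4.6 TPM in WT (adjusted p = 0.00259), and was not called when transcripts were tested singly (0.141). CNX3 stood at 13.9 ± 0.7 TPM in sos2-2 and 10.7 ± 0.7 TPM in WT (adjusted p = 0.0318). Its call was lost without any of sos2-2 replicates 1, 2 and 3 or WT replicates 2 and 3 (adjusted p = 0.0551, 0.0626, 0.0524, 0.0843 and 0.118 in that order). The siroheme genes UPM1 and SIRB, whose product is the cofactor of nitrite reductase, were not called (0 of 2).

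Of 18 tested genes of ammonium transport and assimilation 4 rose and 8 fell, with a median of -0.42. The 12 called are a share near the 65.4% of all loci, of which 31.3% were higher and 34.1% lower. Ammonium transporters were higher in 3 of 4 tested cases. AMT1;1 had 340, 321 and 333 TPM in sos2-2, against 76.5, 55.6 and 60.5 TPM in WT (log2 fold change 2.36, adjusted p = 1.81e-05). AMT1;3 stood at 138 ± 25 TPM in sos2-2 and 60.8 ± 14.8 TPM in WT, while AMT1;2, an endodermal and cortical transporter, fell to 11.1 ± 6.2 TPM in sos2-2, against 35.8 ± 13.7 TPM in WT. Glutamine synthetase genes fell in 3 of 6 cases and rose in 0. The abundant cytosolic genes GLN1;1, GLN1;2 and GLN1;3 were not called, with GLN1;2 at 1706 ± 329 TPM in sos2-2 and 2074 ± 363 TPM in WT (adjusted p = 0.206). The falls were the plastid GLN2, at 106 ± 4.21 TPM in sos2-2 and 181 ± 3.78 TPM in WT, GLN1;4, at 1.97 ± 0.56 TPM in sos2-2 and 4.14 ± 0.28 TPM in WT, and the scarce GLN1;5, at 0.255, 0 and 0.288 TPM in sos2-2 and 2.11, 1.81 and 1.92 TPM in WT. The asparagine synthetase gene ASN1, known for induction in carbon starvation and darkness, was at 39.4, 152 and 214 TPM in sos2-2, against 1.81, 8.03 and 4.79 TPM in WT (log2 fold change 4.38, SE 0.66, adjusted p = 0.000924). Its relative ASN3 fell to 9.51 ± 0.82 TPM in sos2-2, against 24.5 ± 2.7 TPM in WT (SD, n = 3 each).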

How the data were processed

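The authors deposited 1 table of TPM (transcript abundance scaled for length and library) for 48359 transcripts in 6 samples; each sample sums to 1000000, from which the unit was read. Per the submitters' processing notes the build was TAIR10 and the tools were sleuth 0.30.0 and kallisto 0.46.2, whose roles are unstated. The annotation release, any filters and strandedness: not given in the sources used here. Since TPM hold no depth, no counting interval is given, and an exact 0 is given as listed at 0. There were 0 columns of other samples.

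Transcripts were summed per locus (27655 loci). The 19527 loci averaging 1 TPM or more across samples entered limma 3.58.1 (R 4.3.3) as log2(TPM + 1), sos2-2 minus WT, with genotype only, a mean-variance trend and robust moderation, and Benjamini-Hochberg adjustment over all tested loci. Fold changes on this scale understate those of low genes. Ratios between members were compared by exact permutation over samples. Figures used Python 3.11.15. Names, positions and sequences came from RefSeq TAIR10.1, used on its own coordinates; a gene that it does not name is given by locus, and 1 listed locus was not analysed here. Genes named beside the members were the 3 largest rises and 3 largest falls called in each list, and SOS2 and GL1. Outside this rule, named after their values were seen, are NLP7, the LBD genes, UPM1, SIRB, CNX7, AT2G43760, G6PD2 and G6PD3. So are GLN2, GLN1;1 to GLN1;4 and single markers of cell types and green tissue. The members and lists were chosen with earlier results of these data known.

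Same-numbered samples were checked for pairing: deviations from group means correlated at 0.177, 0.0505 and 0.0575 for replicates 1, 2 and 3, so the numbers were not taken to pair samples. Alternatives changed the filter, pseudocount, scaling, moderation, testing unit and block, or left out 1 sample.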

Additional observations from a re-analysis of the deposited data

How the results depend on the processing

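Over 16 alternatives, NRT1.1, NRT1.2, NRT2.1, NRT3.1, NIA1 and NIR1 kept direction and call. Members called higher numbered 3 throughout, and 3 or 4 were lower. NPF7.3 was not called without a filter (log2 fold change -0.81), and with 1 sample left out its value ran from -1.05 to -0.55. NIA2, not called in any fit, ran from -0.32 to 0.10 with 1 sample left out and reversed, to 0.10, without sos2-2 replicate 1. The cause was not tested. Loci called in all numbered 12780, and 10717 to 12876 with 1 sample left out. With the replicate block, which shares only numbers between genotypes, 12547 loci were called and no call of a member was lost. Of the cofactor genes 1 rather than 2 was higher with the replicate block, with quantile normalization or with AT2G01021 left out (an alternative added after seeing the data), and 1 to 2 with 1 sample left out. Nitrate transporters lower numbered 5 rather than 3 with no filter, where more genes are tested, and regulators lower 1 rather than 2 with a filter of 5 TPM, where fewer are. Rescaling by medians of ratios or quantiles changed no call of a member. Depth is unknown, so the precision of values under 1 TPM, as for NRT2.2 and NRT2.4, cannot be given.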
